A study of Mus musculus with 2 samples.

Results

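The cells described here are Lgr5-positive cells of mouse small intestinal crypts grown together with intestinal fibroblasts. They are called non-cycling for a low share of mitotic genes, which does not exclude cells in other phases of the cycle. Lgr5 encodes a receptor for R-spondins, secreted proteins that amplify Wnt signalling, and it marks the stem cells at the base of the crypt. The cells were chosen by measured values: a cell counted as Lgr5-positive when it was epithelial by its markers and carried at least 1 unique molecular identifier (UMI, the tag that counts an mRNA molecule once) of Lgr5. It also had to hold under 0.3% of its UMIs in 7 mitotic genes, and under 0.3% in 4 genes of the fetal-like state (Clu, Ly6a, Msln and Il1rn). By this rule there were 330 cells among 2507 deposited barcodes, 254 of 1599 in Ptger4-OFF and 76 of 908 in Ptger4-ON.

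Both conditions were crypt and fibroblast co-cultures from C57BL6 mice aged 10 weeks, profiled by Drop-seq, which captures single cells in droplets. EP4, the product of Ptger4, binds prostaglandin E2 and raises cyclic AMP in the cell. In the Ptger4-OFF cultures EP4 was blocked with ONO-AE3-208, given every second day at 10 µM, and the crypts formed budding organoids. The Ptger4-ON cultures had DMSO and formed spheroids. Each condition was 1 library from 6 pooled cultures, so no test between conditions exists, and the 95% intervals below cover counting error only, not the spread between cells, cultures or mice. A difference between the libraries cannot be told apart from a difference between 2 pools.

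The crypt base stem cell depends on Wnt ligands and R-spondins, which keep beta-catenin active and hold up genes such as Lgr5, Ascl2 and Axin2. Notch signalling from neighbouring secretory cells keeps it out of the secretory lineage. Its daughters divide, leave the base and become absorptive enterocytes, or Paneth, goblet, enteroendocrine or tuft cells. After injury, or in cultures that grow as round spheroids, crypt cells can take up a fetal-like state with low Lgr5 and high Ly6a, annexins and S100 proteins.

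The Lgr5-positive cells had a median of 5279 UMIs (range 992 to 100348) in Ptger4-OFF and 10498 UMIs (864 to 130922) in Ptger4-ON. Barcodes with more than 50000 UMIs numbered 3 in Ptger4-OFF, with 10.3% of the Lgr5-positive cells' UMIs, and 5 in Ptger4-ON, with 33.5%. Sums over the Ptger4-ON cells therefore rest in good part on a few barcodes, and values without them are given where they moved, beside the result or among the alternatives. The libraries shared 1 barcode, which was not an Lgr5-positive cell, and the doublet caller marked none of the Lgr5-positive cells. UMIs of 5 fibroblast marker genes were present in 110 of 254 and 47 of 76 Lgr5-positive cells, at 79.1 and 72.7 counts per 1000000 UMIs (CPM), against 30890 and 30776 CPM in the fibroblasts of Ptger4-OFF and Ptger4-ON. Endothelial and erythroid lists were at 0 UMIs. The leukocyte list was at 0 in 213 of 254 Lgr5-positive cells of Ptger4-OFF and 58 of 76 of Ptger4-ON. The enteric glial list was at 0 in 249 and 75, so the other cells carried some of these UMIs. Among the Lgr5-positive cells, 24 barcodes of Ptger4-OFF and 6 of Ptger4-ON ended in an undetermined base.

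Of the Lgr5-positive epithelial cells before the gates, 428 in Ptger4-OFF and 174 in Ptger4-ON, the mitotic gate alone removed 168 and 82, the fetal-like gate alone 6 and 13, and both gates 0 and 3. The mitotic limit ran through a continuous distribution. Cells between 0.2% and 0.3% numbered 50 in Ptger4-OFF and 11 in Ptger4-ON, and Lgr5-positive cells just outside, between 0.3% and 0.4%, numbered 30 in Ptger4-OFF and 21 in Ptger4-ON. The fetal-like limit removed fewer cells, and 188 of 254 and 31 of 76 Lgr5-positive cells had no UMI of these 4 genes.

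Lgr5 (ENSMUSG00000020140.15, chromosome 10, 115450311 to 115587780, minus strand, mm10) chose the cells, so its level is a description only. It had 444 UMIs in the Ptger4-OFF cells and 219 in the Ptger4-ON cells. Most of the Ptger4-OFF cells carried a single Lgr5 UMI: 152 had 1, 61 had 2 and 41 had 3 or more, up to 8. In Ptger4-ON, where cells were deeper, 36 had 1, 14 had 2 and 26 had 3 or more, up to 13. In fibroblasts, which should lack the transcript, Lgr5 stood at 5.39 CPM in Ptger4-OFF and 3.28 CPM in Ptger4-ON, against 104.6 and 99.0 CPM in epithelial cells outside both gates. A barcode without an Lgr5 UMI is not shown to lack the transcript at this depth.

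As a share of the epithelial cells outside both gates, Lgr5-positive cells were more frequent in Ptger4-OFF once depth was equal. With each cell thinned to 1000 UMIs, 101 of 733 cells (13.8%, exact Clopper-Pearson interval 11.4 to 16.5%) had an Lgr5 UMI in Ptger4-OFF and 16 of 245 (6.53%, 3.78 to 10.4%) in Ptger4-ON. Cells under 1000 UMIs were left out, 33 in Ptger4-OFF and 24 in Ptger4-ON. Unthinned, the shares were 33.2% and 28.3%, with median depths of 3669 and 4339 UMIs. Fibroblasts gave 0.284% and 0.376% after thinning. The summed Lgr5 level of the same cells, 104.6 CPM in Ptger4-OFF and 99.0 CPM in Ptger4-ON, differed far less than the thinned shares.

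To see what else marked these cells, each was set against the Lgr5-zero cell of the same library with the nearest total UMIs, which gave 249 pairs in Ptger4-OFF and 66 in Ptger4-ON. Lgr5-positive cells without a partner of like depth numbered 5 and 10. The medians within pairs were 5250 UMIs in Lgr5-positive against 4997 UMIs in Lgr5-zero cells of Ptger4-OFF, and 8831.5 against 7418 UMIs in Ptger4-ON. UMIs were summed over each group and read as CPM. The cells of 1 library are not replicates, so ratios carry counting intervals and no p-value.

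All 4 other stem cell markers had higher summed levels in Lgr5-positive cells of both libraries, but each was sparse and 3 of the 8 ratios have intervals that include 1. Ascl2, a transcription factor of the crypt base, had 72 UMIs (40.2 CPM) in Lgr5-positive and 23 UMIs (14.5 CPM) in Lgr5-zero cells of Ptger4-OFF, a ratio of 2.78 (interval 1.72 to 4.66). In Ptger4-ON it had 24 and 10 UMIs, a ratio of 1.88 (0.87 to 4.41) whose interval includes 1. Olfm4, which encodes a secreted glycoprotein of crypt base cells, gave ratios of 1.61 (0.92 to 2.88) in Ptger4-OFF and 3.14 (1.01 to 12.9) in Ptger4-ON, the second from 16 against 4 UMIs. Axin2, a negative regulator of Wnt signalling that Wnt itself induces, gave 1.72 (1.21 to 2.48) and 1.45 (0.82 to 2.64). Smoc2, a secreted calcium-binding protein (chromosome 17, 14279506 to 14404790, plus strand), was the most abundant of the 4, at 258.5 against 188.5 CPM in Ptger4-OFF and 170.3 against 81.6 CPM in Ptger4-ON.

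At least 1 of these 4 markers was present in 181 of 249 Lgr5-positive cells (72.7%, interval 66.7 to 78.1%) and 129 of 249 Lgr5-zero cells (51.8%, 45.4 to 58.2%) of Ptger4-OFF. In Ptger4-ON the counts were 52 of 66 (78.8%, 67.0 to 87.9%) and 36 of 66 (54.5%, 41.8 to 66.9%). At least 2 markers were present in 35.3% against 18.1% of cells in Ptger4-OFF and in 47.0% against 22.7% in Ptger4-ON. The marker-bearing share was thus higher among Lgr5-positive cells in each library, yet more than 50% of Lgr5-zero cells of like depth carried a stem cell marker too. These shares were not thinned, and the Lgr5-positive cells were somewhat deeper. Their medians were 5250 against 4997 UMIs in Ptger4-OFF and 8831.5 against 7418 UMIs in Ptger4-ON. The part of depth in these gaps was not tested.

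A list of 29 crypt stem cell genes, Lgr5 itself left out, was higher in Lgr5-positive cells almost throughout. Among its measured members (20 or more UMIs over both groups), the median log2 ratio was 0.54 in Ptger4-OFF, where 24 of 26 were higher, and 0.80 in Ptger4-ON, where all 23 were. Over all measured genes the median was 0.11 in Ptger4-OFF and 0.04 in Ptger4-ON, and 60.8 percent and 53.4 percent of genes were higher, 40.3 percent of genes in both libraries. Slc12a2, a sodium, potassium and chloride cotransporter, had 2037 against 1071 UMIs in Ptger4-OFF (ratio 1.69, interval 1.57 to 1.82) and 804 against 363 UMIs in Ptger4-ON (1.74, 1.53 to 1.97). Igfbp4, an insulin-like growth factor binding protein, gave 1.95 (1.55 to 2.47) and 2.28 (1.61 to 3.29), although fibroblasts carried it in a like share of cells. Zbtb38, a zinc finger protein, gave 1.49 (1.24 to 1.81) and 1.85 (1.38 to 2.51).

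**Figure D1:**
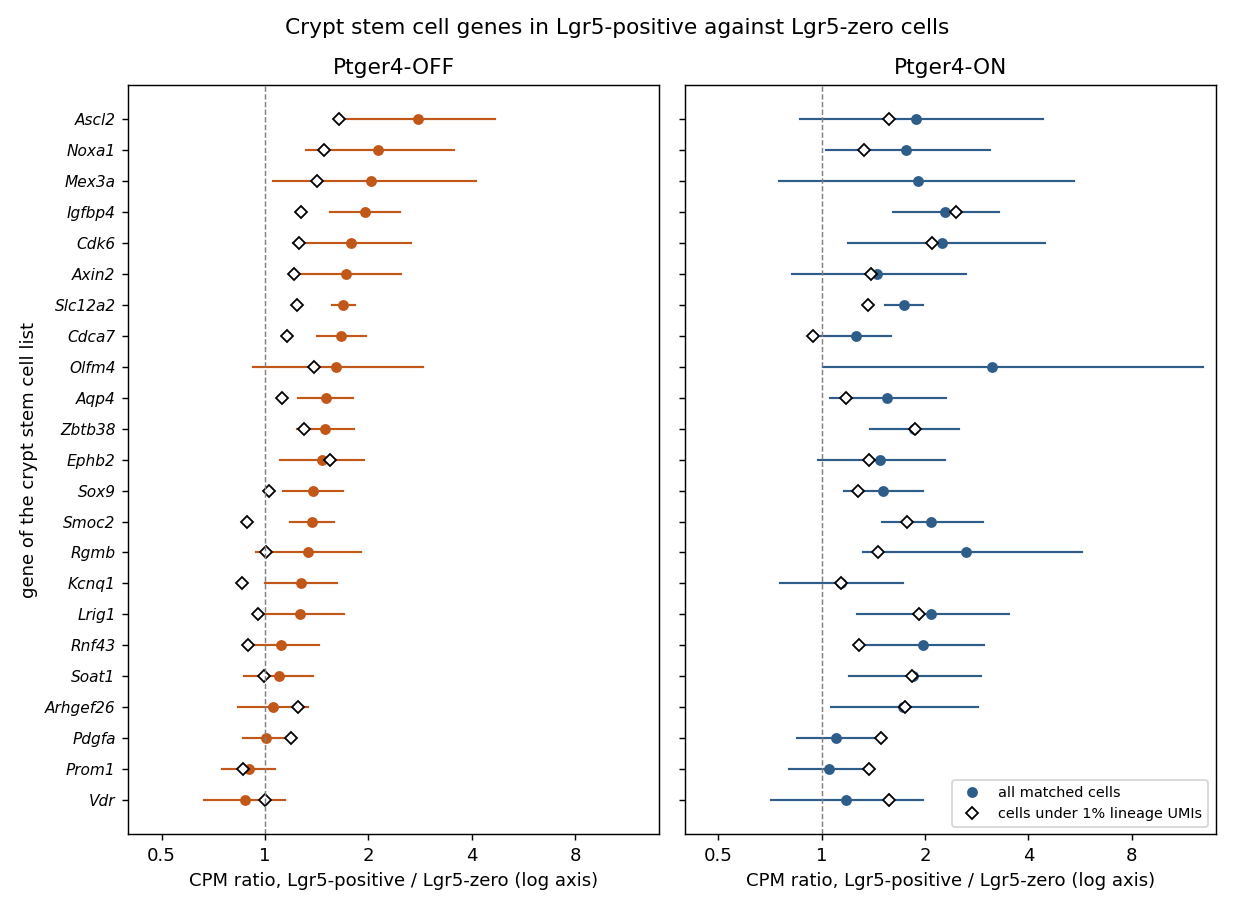
Ratio of CPM in Lgr5-positive over Lgr5-zero cells of like depth for the members of the crypt stem cell list measured in both libraries, with Ptger4-OFF on the left and Ptger4-ON on the right. Filled points are all matched cells with their 95% counting intervals, and open diamonds are cells under 1% lineage UMIs. In Ptger4-OFF most diamonds lie nearer to 1 than the filled points, with Smoc2 at 0.89 against 1.37.

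Enterocyte-type cells were more frequent among the Lgr5-zero cells. Cells with 1% or more of their UMIs from the enterocyte list numbered 4 of 249 Lgr5-positive and 55 of 249 Lgr5-zero cells in Ptger4-OFF, and 0 of 66 and 9 of 66 in Ptger4-ON. The enterocyte list was accordingly lower in Lgr5-positive cells in 23 of 23 measured members in Ptger4-OFF (median log2 ratio -3.22) and in 19 of 19 in Ptger4-ON (-2.65). Apoa4, an apolipoprotein of enterocyte chylomicrons, had 40 against 2856 UMIs in Ptger4-OFF and 1 against 123 UMIs in Ptger4-ON. Apoa1, another apolipoprotein, had 85 against 4574 UMIs and 9 against 2051 UMIs.

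When every cell with 1% or more UMIs of the Paneth, goblet, enterocyte, enteroendocrine or tuft list was left out of both groups, 207 pairs remained in Ptger4-OFF and 51 in Ptger4-ON. This filter is built on those lists, so the shifts of their own genes under it were fixed in part by design. The stem cell list stayed higher, in 19 of 26 measured members in Ptger4-OFF (median log2 ratio 0.23) and in 20 of 21 in Ptger4-ON (0.52). Over all measured genes of these pairs the median was 0.016 in Ptger4-OFF and -0.006 in Ptger4-ON. Ascl2 kept a ratio of 1.64 (1.02 to 2.71) in Ptger4-OFF and 1.57 (0.59 to 4.61) in Ptger4-ON. Smoc2 did not keep its direction in Ptger4-OFF, where it had 369 against 336 UMIs and a ratio of 0.89 (0.76 to 1.03). In Ptger4-ON it stayed higher, at 101 against 45 UMIs (1.77, 1.23 to 2.57). Thinned to 1000 UMIs before this exclusion, Smoc2 was present in 19.0% of Lgr5-positive against 17.8% of Lgr5-zero cells of Ptger4-OFF, and in 23.1% against 7.69% in Ptger4-ON.

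Some wider lists were also higher with all pairs. Without lineage-rich cells the median over all measured genes was 0.016 in Ptger4-OFF and -0.006 in Ptger4-ON. Of 16 measured Wnt targets, 15 were higher in Lgr5-positive cells of Ptger4-OFF (median log2 ratio 0.57) and 12 of 13 in Ptger4-ON (0.52), and without lineage-rich cells 13 of 16 (0.14) and 11 of 13 (0.35). Genes of the G1/S transition were higher in 35 of 35 members in Ptger4-OFF (0.59) and in 27 of 35 in Ptger4-ON (0.38). Without lineage-rich cells the G1/S medians were 0.02 in Ptger4-OFF and -0.14 in Ptger4-ON, so these DNA replication genes stood near level once differentiated cells were left out. Ribosomal protein genes likewise stood at 0.28 and 0.34 with all pairs, and at -0.02 and 0.05 without lineage-rich cells. The reserve stem cell list had 4 measured members (Lrig1, Mex3a, Hopx and Bmi1), all higher in both libraries (medians 0.22 and 0.67). Lrig1 and Mex3a also belong to the crypt stem cell list, and 60.8 and 53.4 percent of all measured genes were higher, so this list adds little. Lrig1, an inhibitor of EGF receptors, gave ratios of 1.26 (0.95 to 1.69) and 2.08 (1.27 to 3.52).

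**Figure D2:**
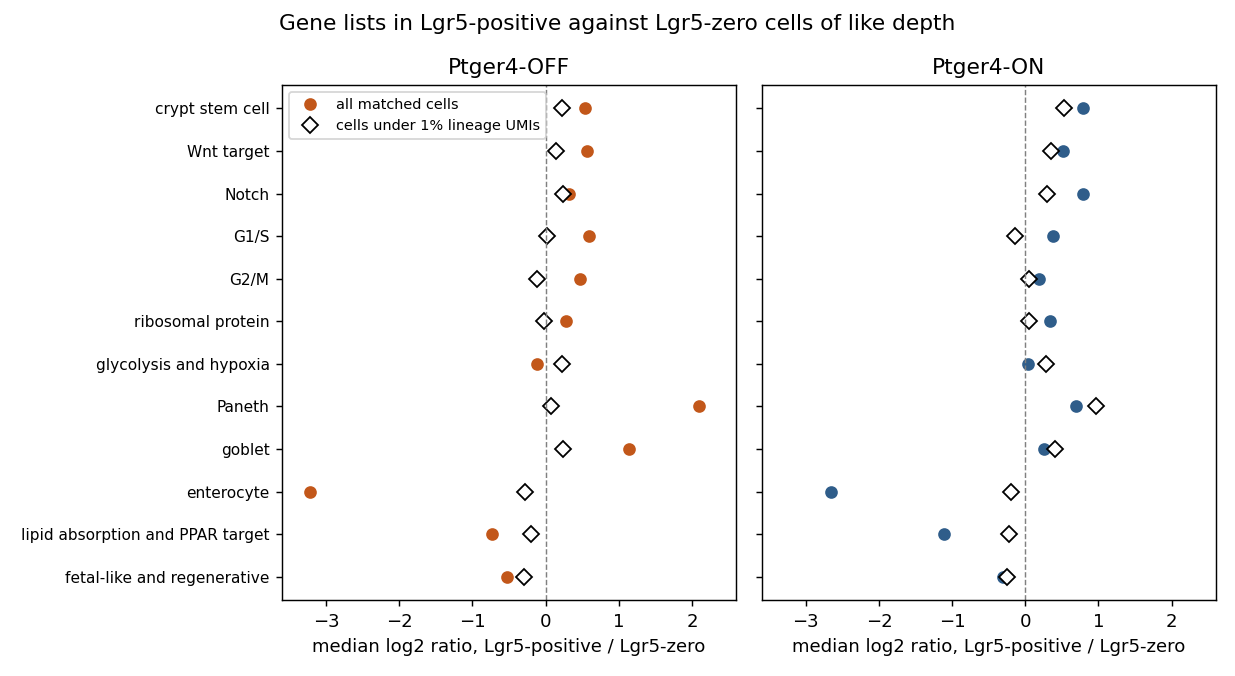
Median log2 ratio of each gene list in Lgr5-positive over Lgr5-zero cells of like depth, Ptger4-OFF on the left and Ptger4-ON on the right, in all matched cells (filled circles) and in cells under 1% lineage UMIs (open diamonds). The crypt stem cell list stays above 0 in both forms, while the G1/S and ribosomal lists move to near 0 and the enterocyte list moves from -3.22 and -2.65 to -0.28 and -0.19. The lineage filter uses the enterocyte list itself.

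Some Lgr5-positive cells carried a secretory programme. Cells with 1% or more Paneth UMIs numbered 16 of 254 in Ptger4-OFF and 13 of 76 in Ptger4-ON, those with goblet UMIs 14 and 12, and those with enteroendocrine UMIs 3 and 0. All the Paneth-rich and goblet-rich ones had a partner, and among matched Lgr5-zero cells Paneth-rich cells numbered 5 in Ptger4-OFF and 8 in Ptger4-ON, and goblet-rich cells 8 and 7. In all, 38 of 254 (15.0%, interval 10.8 to 19.95%) and 15 of 76 Lgr5-positive cells (19.7%, 11.5 to 30.5%) passed 1% for some differentiated list. Whether such a barcode held 1 cell or 2 was not tested.

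Paneth genes were higher in Lgr5-positive than in Lgr5-zero cells, in 10 of 10 measured members in Ptger4-OFF (median log2 ratio 2.10) and 13 of 13 in Ptger4-ON (0.70). Without lineage-rich cells 4 of 7 measured members were higher in Ptger4-OFF (median log2 ratio 0.066) and 4 of 5 in Ptger4-ON (0.97). The medians over all measured genes were then 0.016 and -0.006, so the Paneth list of Ptger4-OFF lay near them. Mmp7, the protease that activates Paneth defensins, had 1205 against 238 UMIs in Ptger4-OFF (ratio 4.5, 3.91 to 5.19) and 1953 against 982 UMIs in Ptger4-ON (1.56, 1.44 to 1.69). Without lineage-rich cells Mmp7 remained higher, at 288 against 90 UMIs (2.58, 2.03 to 3.31) and 605 against 180 UMIs (2.65, 2.24 to 3.14). Thinned to 1000 UMIs, Mmp7 was present in 21.4% of Lgr5-positive cells of Ptger4-OFF and 53.3% of those of Ptger4-ON, against 1.71% and 1.88% of fibroblasts. Defa24, a defensin, was less distinct: 18.3% and 26.7% of thinned Lgr5-positive cells had a UMI, beside 13.4% and 12.4% of fibroblasts, and the part of free RNA was not tested. Its ratio without lineage-rich cells was 0.71 (0.55 to 0.93) in Ptger4-OFF and 1.99 (1.18 to 3.47) in Ptger4-ON. Lgr5-zero cells of any depth, in place of matched ones, put the Paneth median at 0.29 in Ptger4-OFF and -0.16 in Ptger4-ON.

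**Figure D3:**
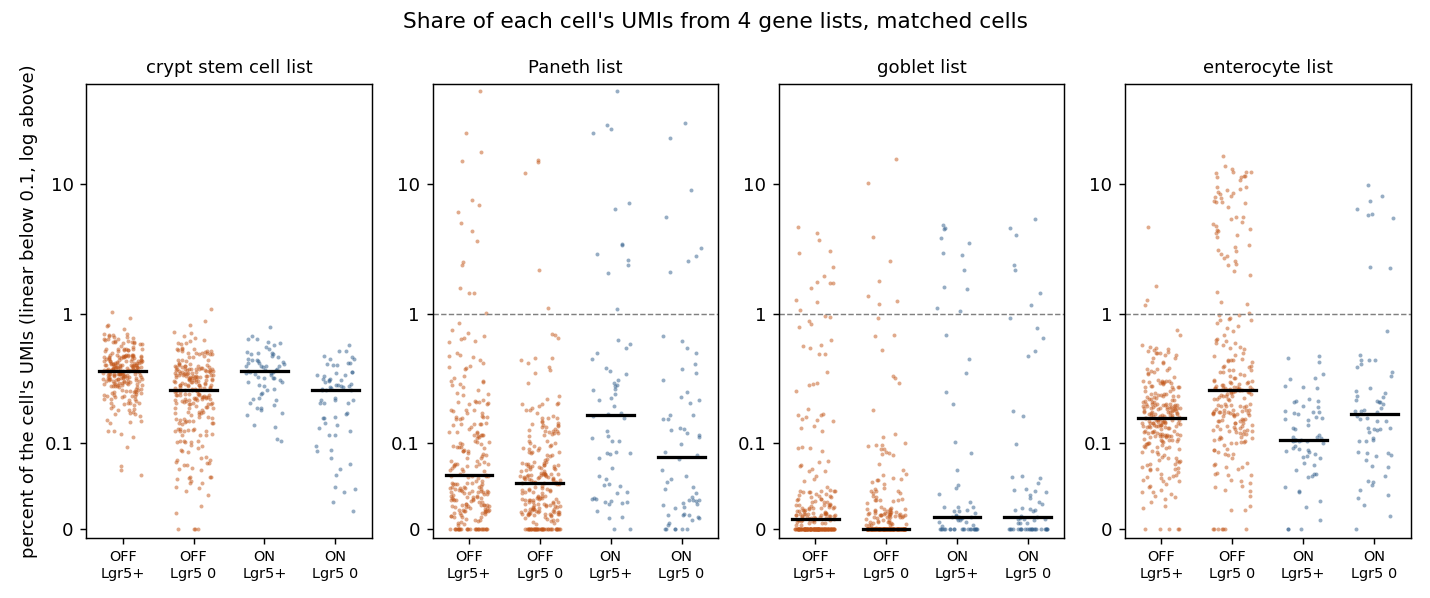
Percent of each cell's UMIs from the crypt stem cell, Paneth, goblet and enterocyte lists in matched cells, by library and Lgr5 state (linear axis below 0.1, log above), with black bars at the medians and dashed lines at 1% in the Paneth, goblet and enterocyte panels. Lgr5-positive cells have a stem cell median of 0.361% in Ptger4-OFF and 0.358% in Ptger4-ON, against 0.257% and 0.258% in Lgr5-zero cells, and cells above 1% for Paneth or goblet genes occur in each of the 4 groups.

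Genes at least 2-fold higher in Lgr5-positive cells made up 2.87 percent of measured genes in Ptger4-OFF and 2.94 percent in Ptger4-ON, and genes at least 2-fold lower made up 4.35 and 5.13 percent. Only 14 genes of 7693 measured in both libraries (0.182 percent) were at least 2-fold higher in both, and 185 (2.4 percent) were at least 2-fold lower in both. Reg3b and Itln1 were among the genes higher in both. Reg3b, an antibacterial lectin, gave ratios of 2.66 (2.25 to 3.14) in Ptger4-OFF and 2.69 (2.07 to 3.54) in Ptger4-ON, and Itln1, an intelectin made by Paneth and goblet cells, gave 4.09 (3.61 to 4.64) and 2.2 (2.0 to 2.43). Without lineage-rich cells Reg3b was still higher in Ptger4-OFF (2.31, 1.89 to 2.83) and had 46 against 0 UMIs in Ptger4-ON, whereas Itln1 gave 0.84 (0.68 to 1.05) and 2.42 (1.71 to 3.48).

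Hmga2 and Zfp462, also of this set, had low counts and were picked here after their values were seen. Hmga2, a chromatin protein of embryonic and proliferating tissue, had 79 against 32 UMIs in Ptger4-OFF (ratio 2.19, 1.44 to 3.42) and 29 against 9 UMIs in Ptger4-ON (2.53, 1.16 to 6.07). Zfp462, a zinc finger protein, had 35 against 12 UMIs and 15 against 5 UMIs, and without lineage-rich cells 32 against 8 UMIs and 12 against 3 UMIs. Fibroblasts carried both genes at higher levels than Lgr5-positive cells, from 24.0 CPM for Zfp462 to 196 CPM for Hmga2, both in Ptger4-ON. Fibroblast marker UMIs in Lgr5-positive against Lgr5-zero cells of like depth numbered 153 against 154 in Ptger4-OFF (85.4 against 96.8 CPM). In Ptger4-ON they numbered 59 against 58 (75.5 against 94.7 CPM). The part of fibroblast RNA in the Hmga2 and Zfp462 levels was not tested. Ttr, transthyretin, which carries thyroid hormone and retinol, had 373 against 160 UMIs in Ptger4-OFF (2.07, 1.72 to 2.51) and 129 against 45 UMIs in Ptger4-ON (2.25, 1.59 to 3.23). It was nearly absent from fibroblasts, and thinned shares were 20.6% against 7.69% of cells in Ptger4-OFF and 24.6% against 6.15% in Ptger4-ON. Among the named genes most reduced in Lgr5-positive cells were the apolipoproteins Apoa4 and Apoa1, the cytochromes P450 Cyp2c29, Cyp3a25 and Cyp3a13, the retinaldehyde dehydrogenase Aldh1a1 and the carboxylesterase Ces2a.

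Among the receptors of the niche, 8 of 11 measured R-spondin and Wnt receptor genes were higher in Lgr5-positive cells of Ptger4-OFF (median log2 ratio 0.16) and 3 of 6 in Ptger4-ON (0.28). Lgr4, the second R-spondin receptor, gave 1.06 (0.77 to 1.46) in Ptger4-OFF and 0.95 (0.59 to 1.54) in Ptger4-ON. Rnf43, the Wnt-induced ligase that removes Frizzled receptors, gave 1.11 (0.87 to 1.43) and 1.97 (1.33 to 2.97). The Notch list was higher in 6 of 8 members in Ptger4-OFF (median log2 ratio 0.32) and in 6 of 6 in Ptger4-ON (0.78), with Notch1 itself at 33 against 20 UMIs and 17 against 6 UMIs. Of all measured genes 60.8 percent were higher in Lgr5-positive cells of Ptger4-OFF (median 0.11) and 53.4 percent in Ptger4-ON (0.04). The receptor counts lay near these shares, and both lists had few measured members. Ptger4, the target of the antagonist (chromosome 15, 5206661 to 5244187, minus strand), had 57 against 46 UMIs in Ptger4-OFF (1.10, 0.73 to 1.66) and 16 against 24 UMIs in Ptger4-ON (0.52, 0.26 to 1.03), and neither interval excludes 1. The antagonist blocks the receptor protein, so the transcript does not check the treatment. The prostanoid receptor genes Ptger1, Ptger3 and Tbxa2r had at most 3 UMIs in all Lgr5-positive cells of either library.

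The Lgr5-positive cells of Ptger4-OFF were next set against those of Ptger4-ON. Of 9462 measured genes, 51.5 percent were higher by any size in Ptger4-OFF, 2.56 percent were at least 2-fold higher and 2.48 percent at least 2-fold lower in Ptger4-OFF, with a median log2 ratio of 0.01. The stem cell list was nearly level: 14 members were higher and 11 lower, with a median log2 ratio of 0.02. Without barcodes over 50000 UMIs 8 were higher and 17 lower, with a median of -0.13.

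Single stem cell genes moved apart from this median, with log2 ratios from -1.21 to 1.71 over the list. Smoc2 was higher in Ptger4-OFF, at 255.4 against 141.6 CPM (ratio 1.8, 1.52 to 2.15), and Aqp4, a water channel, at 179 against 92.3 CPM (1.94, 1.57 to 2.4). The Smoc2 difference was not confined to these cells, since matched Lgr5-zero cells had 188.5 against 81.6 CPM. Noxa1, an NADPH oxidase activator, was lower, at 68 UMIs in Ptger4-OFF against 99 UMIs in Ptger4-ON (0.43, 0.31 to 0.59). Rnf43 (0.69, 0.55 to 0.87) and Sox9, a transcription factor of crypt cells (0.68, 0.57 to 0.80), were also lower. Ascl2 (1.30, 0.89 to 1.93), Axin2 (1.2, 0.86 to 1.69) and Olfm4 (1.29, 0.73 to 2.36) had intervals that include 1. Of 16 measured Wnt targets, 10 were lower in Ptger4-OFF (median -0.09, and -0.46 without barcodes over 50000 UMIs). Ccnd1, cyclin D1, stood at 248 against 428 CPM and Cd44, a hyaluronan receptor, at 92.3 against 169 CPM, and fibroblasts of both libraries carried both genes, at 195 to 255 CPM.

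Genes of the fetal-like and regenerative list were lower in the Lgr5-positive cells of Ptger4-OFF even though cells high in Clu, Ly6a, Msln and Il1rn had been gated out. Outside the 4 gate genes, 20 of 21 measured members were lower, 12 of them at least 2-fold, and the median log2 ratio was -1.19. In the matched Lgr5-zero cells 17 of 20 were lower, 8 of them at least 2-fold, with a median of -0.80. The background in Lgr5-zero cells was 3.47 percent of genes at least 2-fold higher and 3.59 percent at least 2-fold lower. S100a6, a calcium-binding protein (chromosome 3, 90612882 to 90624181, plus strand), stood at 555 CPM in Ptger4-OFF and 2434 CPM in Ptger4-ON (0.23, 0.21 to 0.24). After thinning it was found in 62 of 252 Lgr5-positive cells of Ptger4-OFF and 45 of 75 of those of Ptger4-ON. Of the same list, Anxa1, an annexin, stood at 37.3 against 224 CPM and Myof, a membrane repair protein, at 14.2 against 56.3 CPM. Fibroblasts carry all 3, S100a6 in 82.1% and 77.4% of thinned cells, and the part of fibroblast RNA in their levels was not tested. Fibroblast marker UMIs were 79.1 CPM in Lgr5-positive cells of Ptger4-OFF and 72.7 CPM in those of Ptger4-ON.

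Krt7, a simple-epithelial keratin that fibroblasts nearly lack (0.284% and 2.26% of thinned cells), belongs to the tight junction and keratin list. Of its 21 measured members 17 were lower in Lgr5-positive cells of Ptger4-OFF (median log2 ratio -0.36). Krt7 stood at 275.5 against 615.6 CPM (0.45, 0.4 to 0.5) and was found in 23.0% against 46.7% of thinned Lgr5-positive cells, while thinned Lgr5-zero cells gave 26.3% and 26.2%. Krt23, another keratin, stood at 19.1 against 68.8 CPM.

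The fetal-like median was -1.21 in cells under 1% lineage UMIs, -0.92 in 75 Ptger4-OFF and 75 Ptger4-ON cells of like depth, and -0.86 without barcodes over 50000 UMIs. S100a6 kept ratios of 0.16, 0.30 and 0.30 in these subsets, and Krt7 of 0.41, 0.5 and 0.52. Both genes were thus lower in Ptger4-OFF in each of these subsets.

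**Figure D4:**
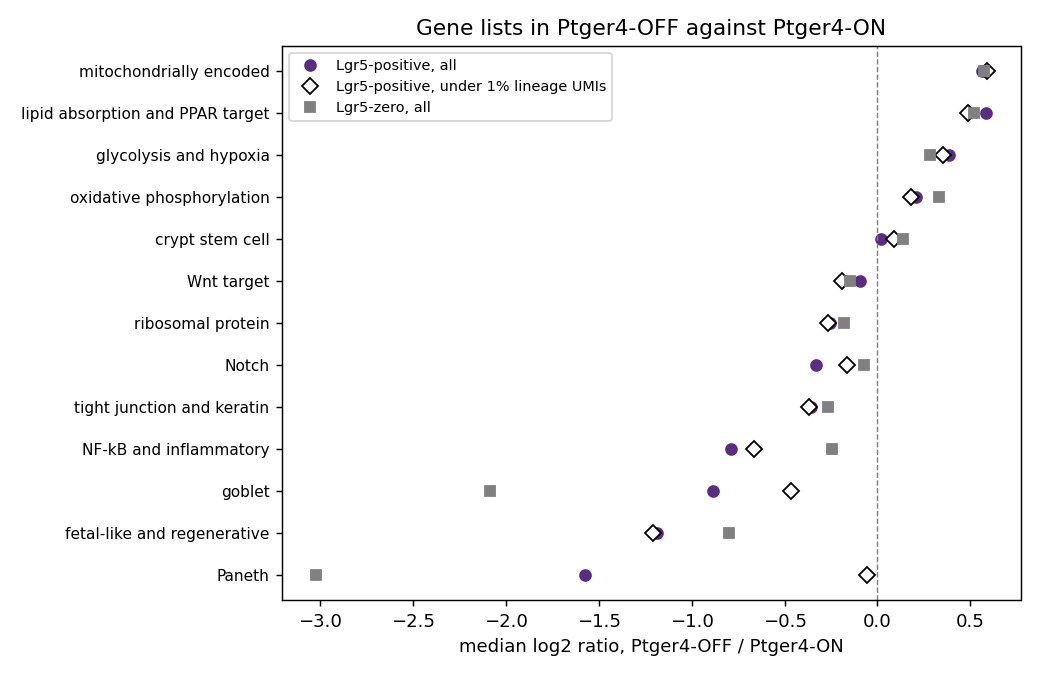
Median log2 ratio of each gene list in Ptger4-OFF over Ptger4-ON, in all Lgr5-positive cells (circles), in Lgr5-positive cells under 1% lineage UMIs (open diamonds) and in matched Lgr5-zero cells (squares). Fetal-like genes lie at -1.19, -1.21 and -0.80, the lipid and PPAR list at 0.58, 0.49 and 0.52, and the Paneth list moves from -1.57 to -0.05 once lineage-rich cells are left out. The lineage filter uses the Paneth list itself.

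Genes of fatty acid uptake and use were higher in the Lgr5-positive cells of Ptger4-OFF. Of 19 measured members of the lipid absorption and PPAR target list, 17 were higher, 7 of them at least 2-fold, with a median log2 ratio of 0.58, against 0.52 in Lgr5-zero cells. Acot1, an acyl-CoA thioesterase, had 236 against 48 UMIs (ratio 3.09, 2.26 to 4.30), and its relative Acot2 had 39 against 5 UMIs (4.9, 1.93 to 15.9), although fibroblasts held more Acot2, at 59.8 and 49.7 CPM. Ppara, the nuclear receptor that drives such genes, had 35 UMIs in 23 cells of Ptger4-OFF against 7 UMIs in 5 cells of Ptger4-ON (3.14, 1.37 to 8.38), but was lower in Lgr5-zero cells of Ptger4-OFF (0.46, 0.26 to 0.82).

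Several other metabolic genes ranked with them. Otc, ornithine transcarbamylase of citrulline synthesis, had 317 against 56 UMIs (3.55, 2.67 to 4.81). Hsd17b13, a lipid droplet dehydrogenase, had 307 against 51 UMIs (3.78, 2.80 to 5.19), and Cth, which makes cysteine from cystathionine, had 308 against 63 UMIs (3.07, 2.33 to 4.09). Otc and Hsd17b13 were at most 5.93 CPM in fibroblasts, whereas Cth was at 164 and 98.9 CPM there. Nrn1, a membrane-anchored protein first known from neurons, stood at 114 against 26.6 CPM (4.28, 2.98 to 6.34) in Lgr5-positive cells and at 88 against 39.2 CPM in Lgr5-zero cells. Ndrg1, a hypoxia-induced protein, had 1272 against 287 UMIs (2.78, 2.45 to 3.17), within a glycolysis and hypoxia list of which 19 of 24 members were higher (median log2 ratio 0.38). All 7 measured mitochondrially encoded genes were higher, with a median of 0.56 and mt-Nd2 at 3285 against 2141 CPM, beside a median mitochondrial share of 3.23% of UMIs against 2.51%. In matched Lgr5-zero cells all 7 measured ones were higher too, with a median of 0.57, and the glycolysis and hypoxia median was 0.28.

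The 4 largest ratios by the naming rule do not describe the Lgr5-positive cells as a group. Gcg (glucagon and GLP-1), Pyy (peptide YY) and Chgb (chromogranin B), hormone and granule genes of enteroendocrine cells, had 98.1%, 92.7% and 78.9% of their Ptger4-OFF UMIs in a single cell. Fabp1, the fatty acid binding protein of enterocytes, had 1095 against 1 UMIs, but 61.5% lay in 1 cell, and the 4.76% of thinned Lgr5-positive cells that carried it lay near the 3.41% of fibroblasts.

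**Figure D5:**
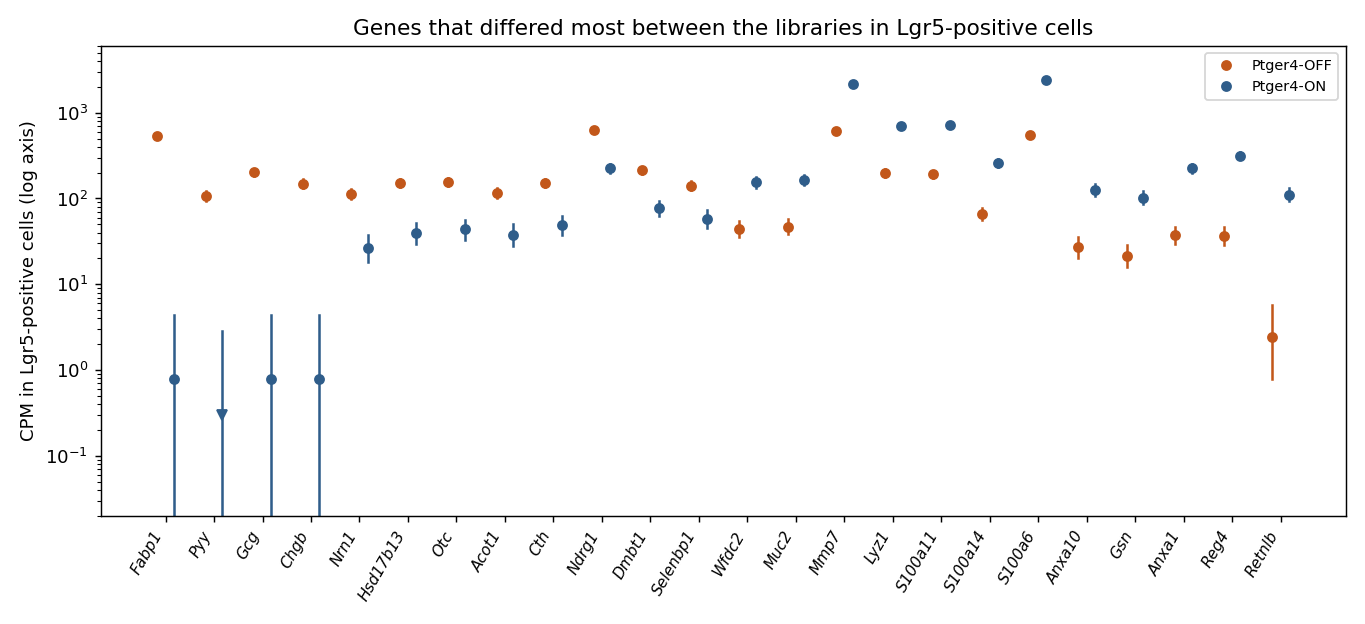
CPM with 95% counting intervals in Lgr5-positive cells of Ptger4-OFF (left point of each pair) and Ptger4-ON (right point), on a log axis, for the 12 largest and 12 smallest ratios by the naming rule. The triangle marks Pyy, at 0 UMIs in Ptger4-ON and drawn at 0.3 CPM, and Nrn1 stands at 114 against 26.6 CPM.

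Secretory genes were lower in the Lgr5-positive cells of Ptger4-OFF when all cells were summed. Of 14 measured Paneth genes 12 were lower (median log2 ratio -1.57) and 2 higher, 1 of these with a log2 ratio of 6.17. Of 11 goblet genes 10 were lower (-0.88). The matched Lgr5-zero cells showed this too, with 9 of 9 Paneth genes lower (-3.02) and 10 of 10 goblet genes (-2.08). In cells of like depth the Paneth median was -3.11. The lineage filter uses the Paneth and goblet lists themselves, so their genes shift under it in part by design. Without lineage-rich cells the Paneth median was -0.05 over 7 measured members, with Mmp7 still lower at 359 UMIs in Ptger4-OFF against 1247 UMIs in Ptger4-ON (0.17, 0.15 to 0.19). Agr2, a protein folding enzyme of mucus cells, had 453.3 against 1399 CPM with all cells but 114 against 62 UMIs, a ratio of 1.08 (0.79 to 1.5), without lineage-rich cells, and Muc2, the gel-forming mucin, had 96 against 209 UMIs with all cells but 5 against 0 without them. Reg4 and Retnlb, secreted products of goblet and related cells, came from 18 and 2 cells of Ptger4-OFF and 15 and 5 cells of Ptger4-ON. Wfdc2, a secreted protease inhibitor, did not turn: it had 91 against 197 UMIs with all cells (0.29, 0.22 to 0.37) and 74 against 171 UMIs without lineage-rich cells (0.25, 0.19 to 0.34).

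Inflammatory genes were also lower in Ptger4-OFF. Of 14 measured members of the NF-kB list, 12 were lower in Lgr5-positive cells (median log2 ratio -0.79), against a median of -0.24 in Lgr5-zero cells, and the difference between these medians was not tested. Tnf, a cytokine, had 5 UMIs in 5 cells of Ptger4-OFF against 27 UMIs in 14 cells of Ptger4-ON (0.12, 0.035 to 0.31). Cxcl16, a chemokine, had 34 against 60 UMIs (0.36, 0.23 to 0.55).

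EP4 feeds into the cAMP and CREB pathway. Of 18 measured targets of that pathway, 9 were higher and 9 lower in Ptger4-OFF, with a median log2 ratio of 0.09. Their summed level was 2961 CPM in Ptger4-OFF and 2509 CPM in Ptger4-ON, a ratio of 1.18 (1.13 to 1.23), and in matched Lgr5-zero cells the ratio was 1.22 (1.15 to 1.29). Atf3, a stress-induced transcription factor, rose most of the 18, at 198.4 against 106.4 CPM (1.86, 1.53 to 2.28). No member was 2-fold higher, and 1 was at least 2-fold lower (log2 ratio -1.11). Ptger4 itself had 64 UMIs in 53 cells of Ptger4-OFF and 33 UMIs in 20 cells of Ptger4-ON (1.22, 0.79 to 1.91), and its interval includes 1. In the Notch list 10 of 11 members were lower in Ptger4-OFF (median -0.33, and -0.59 without barcodes over 50000 UMIs). Hes1, the main Notch effector of the crypt, gave 0.87 (0.75 to 1.02), and Atoh1, the factor that commits cells to the secretory lineage, had 11 against 18 UMIs.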

How the data were processed

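The tables deposited by the authors hold raw counts, genes by barcodes, without normalization. That they count UMIs follows from the Drop-seq protocol in the labels. The submitters' processing notes name STAR 2.6 and mm10. For the counting tool, the annotation and the choice of barcodes, the method is not given in the sources used here. The totals were 9490205 counts (Ptger4-OFF) and 7408303 counts (Ptger4-ON).

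Barcodes were kept with 300 or more detected genes and no more than 20% of counts from mitochondrial genes, 1564 and 882. Cells with more epithelial than fibroblast marker UMIs were called epithelial, 1199 and 584. Doublets called by Scrublet in scanpy 1.11.5 (Python 3.11.15), 4 and 5 with none among the Lgr5-positive cells, were kept except as an alternative, and so few calls do not show that doublets are absent. Partners were the nearest in total UMIs, within 1.5-fold and used once. Ratios have exact conditional binomial intervals and CPM exact Poisson intervals. Log2 ratios add 0.5 to each count. A gene was measured with 20 UMIs over both sums, and genes of the gates were left out of lists. "Lineage-rich" means 1% or more of UMIs in the Paneth, goblet, enterocyte, enteroendocrine or tuft list. Figures used matplotlib 3.10.9, and TMM factors edgeR 4.0.16 in R 4.3.3. Coordinates are from GENCODE vM21 (mm10).

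The cells, the lists and the rules were chosen with earlier results of these data known. Named genes were the markers and stem cell list, the 12 most raised and 8 most reduced by the smaller of the 2 libraries' ratios (at least 100 CPM in the higher group of each), the 12 largest and 12 smallest ratios of Ptger4-OFF over Ptger4-ON (at least 100 CPM in either, and 0.5 or more of the fibroblast CPM where higher), up to 4 genes of each list, and prostaglandin receptors. Some of them are not reported here. The computation was tested on simulated counts.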

Additional observations from a re-analysis of the deposited data

Results flagged for a closer look

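Ratios that lay on opposite sides of 1 in 2 contexts, each with an interval clear of 1, are given here. None of these differences was tested, since each context has 1 library. S100a14, a calcium-binding protein, was lower in Lgr5-positive than in Lgr5-zero cells of Ptger4-OFF (ratio 0.70) and higher in those of Ptger4-ON (1.61). Apoa1 was higher in Ptger4-OFF than in Ptger4-ON among Lgr5-positive cells (3.73) and lower among Lgr5-zero cells (0.859). Ggh, gamma-glutamyl hydrolase, was lower in Ptger4-OFF among Lgr5-positive cells (0.538) and higher among Lgr5-zero cells (2.06). Ppara was higher in Ptger4-OFF among Lgr5-positive cells (3.14) and lower among Lgr5-zero cells (0.462).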

How the results depend on the processing

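Across the alternatives, 276 of the 336 recomputed values for lists, shares and gene counts stayed within set limits. For a list median the limits were an interval over the list's measured members. For a share they were its counting interval, and for a gene count a set fold range. A list whose members spread widely has wide limits, so a value within them can still differ much from the main form. Of 7768 values for single genes and other lists, 17 that were at least 2-fold in the main form changed sign, and 794 moved beyond their limits. Smaller values that changed sign, such as Smoc2 in Ptger4-OFF without lineage-rich cells, are not among the 17. The fetal-like and the lipid and PPAR medians of Ptger4-OFF over Ptger4-ON in Lgr5-positive cells did not move beyond their limits. The cause was not tested for any value below. Log2 medians and ratios are Lgr5-positive over Lgr5-zero unless the libraries are compared.

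In Ptger4-OFF the G1/S median (0.59) was 0.82 with gates at 0.15%, 0.41 with gates at 0.6%, 0.47 without barcodes over 50000 UMIs, 0.20 without cells with a fibroblast marker UMI, 0.022 without lineage-rich cells, 0.48 with TMM, 0.48 with median-of-ratios factors and 0.42 with equal weight per cell. The Paneth median (2.10) was 4.29 with at least 2 Lgr5 UMIs, 0.50 with gates at 0.15%, 0.066 without lineage-rich cells and 0.29 against all Lgr5-zero cells. The stem cell median (0.54) was 0.77 with gates at 0.15%, 0.26 without fibroblast marker UMIs and 0.23 without lineage-rich cells, which put the enterocyte median at -0.28.

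In Ptger4-ON the G1/S median (0.38) was 0.20 with gates at 0.6%, 0.12 without barcodes over 50000 UMIs, 0.50 without fibroblast marker UMIs, -0.14 without lineage-rich cells and 0.057 with equal weight. The Paneth median (0.70) was 0.12 with at least 2 Lgr5 UMIs, 0.41 without barcodes over 50000 UMIs, -0.16 without fibroblast marker UMIs and -0.16 against all Lgr5-zero cells. The stem cell median (0.80) was 0.52 without lineage-rich cells and 0.47 against all Lgr5-zero cells, and the enterocyte median was -0.19 without lineage-rich cells.

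Leaving out enterocyte-type cells, an alternative added after seeing the data, gave in Ptger4-OFF 0.10 (G1/S), 0.62 (Paneth), 0.23 (stem cell) and -0.54 (enterocyte), and in Ptger4-ON -0.066, 0.31, 0.45 and -0.14. Pairs of like depth across libraries, and leaving out each gene's top cell, were added likewise. For Ptger4-OFF over Ptger4-ON in Lgr5-positive cells, the Paneth median was -0.054 without lineage-rich cells, the stem cell median -0.13 without barcodes over 50000 UMIs and the goblet median -2.33 with gates at 0.15%. In Lgr5-zero cells the Paneth median was 0.48 without lineage-rich cells, the opposite sign to -3.02.

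Only single genes that were at least 2-fold in the main form and changed sign are listed here. Between the libraries they were Agr2 (0.11) and Gm15284 (0.43) without lineage-rich cells, and Cyp3a13 (0.28) with equal weight. In Ptger4-OFF they were Defa24 (-0.079 with gates at 0.15%, -0.49 without lineage-rich cells), Gsn (0.034 without fibroblast marker UMIs, 0.16 without lineage-rich cells), Hpgd (0.19 without lineage-rich, 0.11 without enterocyte-type cells), Itln1 (-0.24 without lineage-rich cells) and Gm15284 (-0.091 without fibroblast marker UMIs, -0.79 against all Lgr5-zero cells, -0.94 without enterocyte-type cells). In Ptger4-ON they were Itln1 (-0.027 without fibroblast marker UMIs), Zfp462 (-0.26 with equal weight) and Gm15284 (-0.66 against all Lgr5-zero cells).

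The share of Lgr5-positive cells was 5.61%, 21.5% and 33.2% in Ptger4-OFF and 2.97%, 14.9% and 28.3% in Ptger4-ON when thinned to 500 UMIs, to 2000 UMIs and not at all. With minimums of 10 and 50 UMIs per gene, genes at least 2-fold higher numbered 473 and 104 in Ptger4-OFF (272 at 20 UMIs) and 430 and 48 in Ptger4-ON (227). Those at least 2-fold lower numbered 260 at 50 UMIs in Ptger4-OFF (413), and 602 and 180 in Ptger4-ON (396). For Ptger4-OFF over Ptger4-ON, 425 and 98 were higher (242) and 389 and 100 lower (235) in Lgr5-positive cells, and 471 and 126 higher (301) and 533 and 108 lower (311) in Lgr5-zero cells. No paired analysis was possible because each condition has 1 library and no test was run.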
